A study of Homo sapiens with 6 samples.

Results

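The genes described here are 41 that encode the heat shock chaperones of the cytosol and the mitochondrial matrix, with their co-chaperones and the heat shock factors HSF1 and HSF2. They were chosen by name and matched by gene symbol. Of the 16444 genes in the authors' spike-in table, 40 are members, and of the 12075 genes with FPKM (a fragment count divided by transcript length and sequencing depth), 39 are. HSPA1A was not analysed here, and HSPA1B was found in the spike-in table alone. The samples were KMS-27 cells, a human multiple myeloma line, in 2 groups of 3 libraries: cells given an siRNA that targets Che-1, the product of the AATF gene (siChe-1), and cells given a control siRNA (siControl). Both groups were the same line and carried no other labelled change. External spike-in RNAs had been added to the libraries.

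Chaperones bind proteins that are not fully folded. HSP70 and HSP90 work in cycles driven by ATP, which J-domain proteins, nucleotide exchange factors and HSP90 co-chaperones steer. HSP60 with its lid HSP10 in the mitochondrial matrix and the CCT ring in the cytosol instead enclose a client in a chamber, and CCT is best known for folding actin and tubulin. HSF1 is the factor that raises many of these genes on heat or proteotoxic stress, by binding the heat shock element. Myeloma cells make large amounts of immunoglobulin and lean on protein quality control, and proteasome inhibitors are used against them.

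Relative to other genes, most of these chaperone mRNAs were lower after Che-1 silencing. Of the 36 members with a mean FPKM of at least 10, 20 fell, 2 rose and 14 did not pass the test (limma on log2(FPKM + 1), Benjamini-Hochberg adjusted p under 0.05 over 6285 genes). Over all 6285 genes, 15.1% fell and 15.1% rose, against 20.4% and 9.42% with the deposited scaling and 11.3% and 19.4% with upper-quartile scaling. The members' median log2 change was -0.36, and that of all genes tested was near 0. The FPKM of the 39 members added up to 6631, 6685 and 6490 in siChe-1 libraries, against 8675, 8232 and 9243 in siControl libraries, so that the siChe-1 mean was 75.7% of the siControl mean and the libraries did not overlap. In 25 of the 36 members all siChe-1 libraries lay below all siControl libraries, as in 22.8% of all genes, and in 3 they lay above, as in 22.5% of all genes. The count of members that fell depended on single libraries: it was 13 without the first siChe-1 value and 11 without the third, with 9.71% and 7.83% of all genes lower in those fits. Of the members that rose, HSPB11 passed in each of the 6 fits with 1 library left out and DNAJA1 in none of them. The 11 members that fell in the main setting and in all 13 other settings were TCP1, CCT2, CCT5, CCT6A, CCT7, HSPD1, TRAP1, DNAJA3, BAG1, STIP1 and FKBP4.

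**Figure D1:**
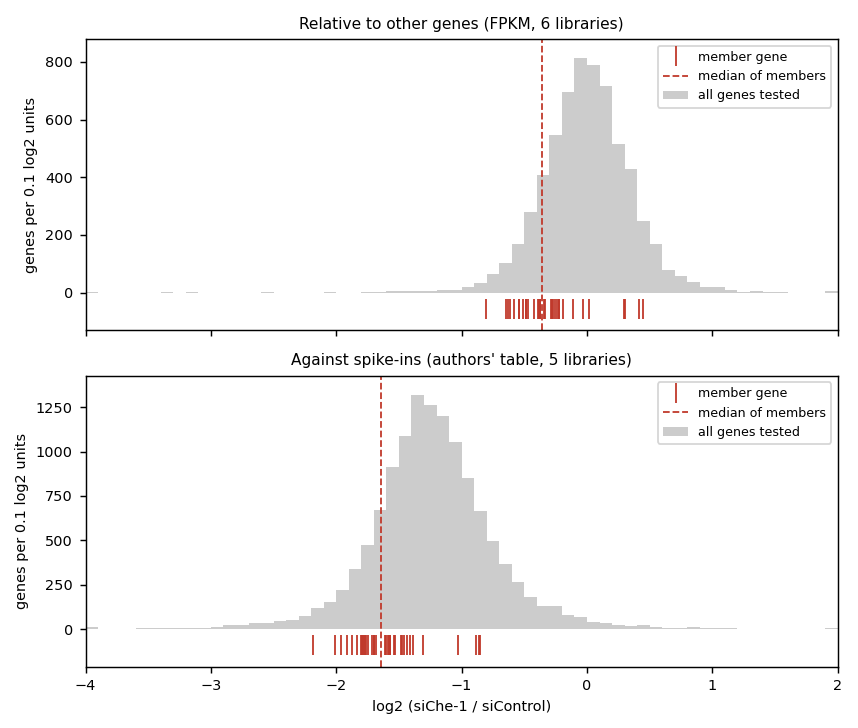
Number of genes (y axis) by log2 of siChe-1 over siControl (x axis, bins of 0.1) relative to other genes in FPKM (top) and against spike-ins in the authors' table (bottom), with a red mark for each member and a dashed line at the members' median. Genes beyond the axis are counted in its outermost bins. On both scales the members' median, -0.36 and -1.65, lies to the left of the middle of all genes.

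Single values below are FPKM rescaled between libraries by factors of 0.957 to 1.07, in the order in which the table lists them. That order carries no replicate number. A log2 change is siChe-1 over siControl on the log2(FPKM + 1) scale with its SE, and adjusted p is that of limma, by Benjamini-Hochberg over all genes tested. AATF, the silenced gene, stood at 14.9, 14.8 and 17.1 FPKM in siChe-1 libraries, against 93.8, 88.7 and 112 FPKM in siControl libraries. Its log2 change was -2.57 ± 0.11. The labelled cell type was checked by marker genes. Of 12 plasma cell markers 10 were listed in FPKM, and CD27 and CD79A were not. Of the listed markers 8 were tested, and 2 fell and 1 rose, beside 15.1% of all genes in each direction. The most abundant, IGJ, averaged 10043 ± 1866 FPKM in siChe-1 and 8428 ± 1692 FPKM in siControl libraries (SD, n = 3 each). Of 6 T cell and 5 erythroid markers 1 each was listed in FPKM, and of 6 myeloid and 6 stromal and epithelial markers none was. The T cell marker CD3G was at most 0.763 FPKM and the erythroid marker HBB at most 0.651 FPKM in any library.

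**Figure D2:**
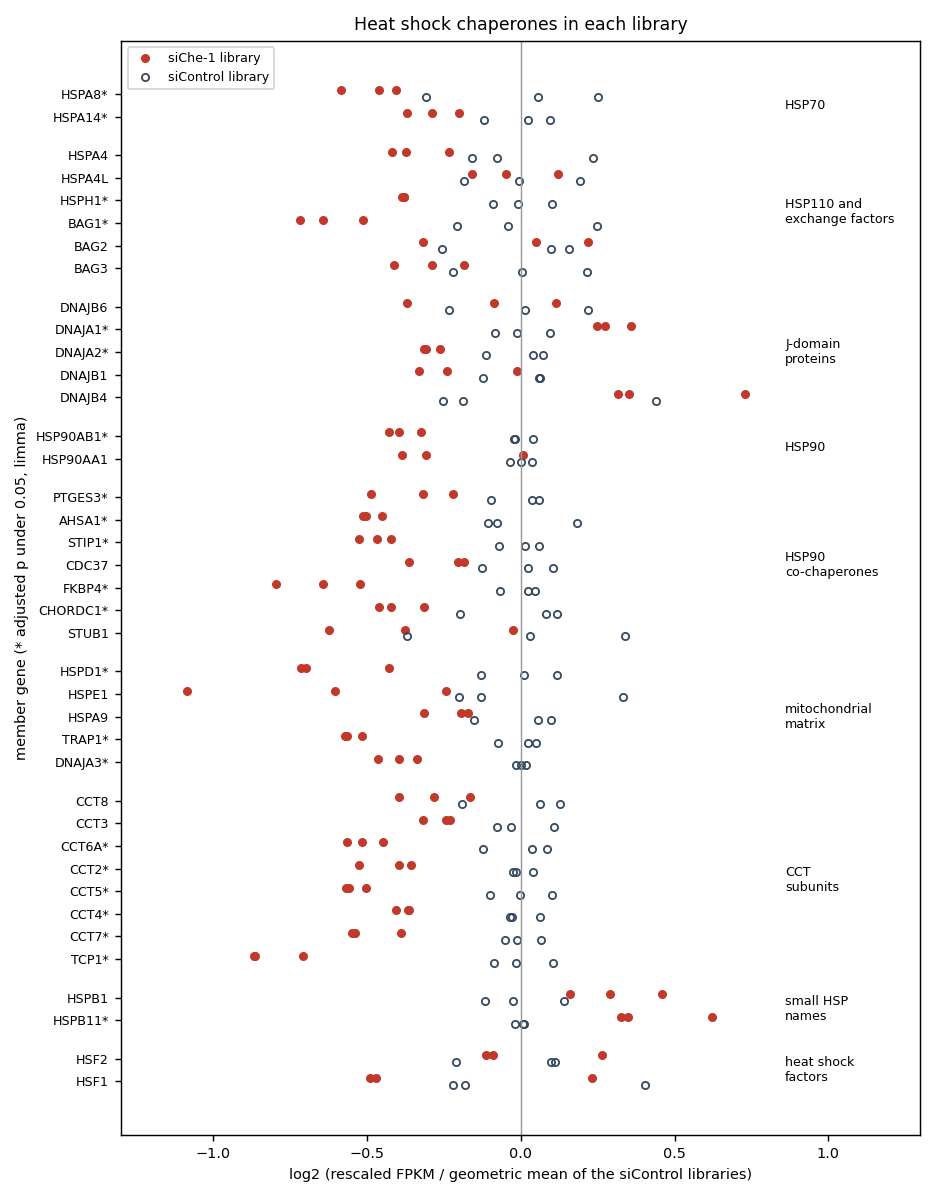
Log2 of each library's rescaled FPKM over the geometric mean of the siControl libraries (x axis) for the 39 members with FPKM (y axis), grouped by role and ordered by abundance within a role. Filled points are siChe-1 and open points siControl libraries, and an asterisk marks an adjusted p under 0.05. The CCT subunits, the HSP90 co-chaperones and the matrix chaperones lie to the left of 0 in siChe-1. HSPB1, HSPB11, DNAJA1 and DNAJB4 lie to the right, with overlap between the groups for DNAJB4.

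The heat shock factors themselves did not pass the test. HSF1, the main stress-activated factor, stood at 9.78, 15.9 and 9.66 FPKM in siChe-1 libraries, against 11.96, 17.9 and 11.6 FPKM in siControl libraries. HSF2, a related factor that can pair with HSF1, stood at 27.6, 21.2 and 21.6 FPKM in siChe-1 libraries, against 24.6, 19.9 and 24.8 FPKM in siControl libraries. The groups overlapped for both genes. The log2 change was -0.22 ± 0.22 for HSF1 (adjusted p = 0.488) and 0.02 ± 0.13 for HSF2 (adjusted p = 0.930). HSF1 shares its span in the FPKM table with DGAT1 on the opposite strand, and whether the counting told strands apart is not stated.

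The heat shock element is a run of GAA units in alternating orientation. Its 3-unit form, GAANNTTCNNGAA or TTCNNGAANNTTC on the strand of the gene, was searched for in RefSeq promoter windows of GRCh38.p14, which cover 250 bases before and 50 after a gene's start (the expression files use hg19). Each of these spellings is the reverse complement of the other, so the search covers both strands, and overlapping matches were counted. It was found in 0.608% of 27305 genes with a window, and in 0.49% of 35116 windows. Of the 41 members 35 had a window, with 49 windows among these 35. A match was found in 7 of the 49 windows, which belong to 7 genes. These 7 genes are shown because they include the most abundant cytosolic chaperones and because they did not move alike. Capitals mark the matches, and lower case the bases around them. All are written 5′ to 3′ on the strand of the gene.

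HSPA8, distal, chr11:123062334-123062386, minus strand: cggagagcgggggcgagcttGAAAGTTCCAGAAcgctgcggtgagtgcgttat
HSPA8, proximal, chr11:123062159-123062211, minus strand: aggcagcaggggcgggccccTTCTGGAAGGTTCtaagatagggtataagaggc
HSP90AB1, chr6:44247758-44247863, plus strand: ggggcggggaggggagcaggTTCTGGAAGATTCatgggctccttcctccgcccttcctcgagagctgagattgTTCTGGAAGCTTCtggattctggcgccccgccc
HSP90AA1, chr14:102087100-102087152, minus strand: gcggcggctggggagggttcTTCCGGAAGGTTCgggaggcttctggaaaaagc
HSPD1, before one of its starts, chr2:197500048-197500090, minus strand: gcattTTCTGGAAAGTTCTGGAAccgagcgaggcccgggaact
CHORDC1, chr11:90223067-90223129, minus strand: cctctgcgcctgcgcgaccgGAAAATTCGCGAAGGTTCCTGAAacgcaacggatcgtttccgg
DNAJB6, chr7:157336853-157336905, plus strand: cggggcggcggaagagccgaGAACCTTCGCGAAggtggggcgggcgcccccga
DNAJA1, from base 4 of the transcript, chr9:33025276-33025288, plus strand: GAACTTTCCAGAA

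The proximal HSPA8 match began 55 bases before the gene's start, that of CHORDC1 60 bases, that of HSP90AA1 88 bases and that of DNAJB6 131 bases before it. In CHORDC1 and HSPD1 the matches overlap, so that the units run on without a break over 23 and 18 bases. Among the 7 genes, HSPA8, HSP90AB1, HSPD1 and CHORDC1 fell relative to other genes, DNAJA1 rose, and HSP90AA1 and DNAJB6 did not pass the test. Of all genes tested, 15.1% fell and 15.1% rose. None of the 7 CCT genes with a window held a match. The same was true of most other members with a window, among them HSPA1B, HSPH1, DNAJB1, HSPB1, HSPE1 and BAG3. The lack is thus not particular to CCT. A match is a description of the letters in this window and was not tested as a binding site. Elements with another spelling, with gaps or outside the window were not searched for. The lack of a match thus does not show that a gene has no heat shock element.

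In the HSP70 group, the constitutive form HSPA8 was the most abundant of all members. It stood at 1565, 1437 and 1627 FPKM in siChe-1 libraries, against 2244, 1742 and 2567 FPKM in siControl libraries. The groups did not overlap, and the log2 change was -0.49 ± 0.15 (adjusted p = 0.0480). That call is close to the threshold and held in 5 of 13 other settings. HSPA14, a ribosome-associated HSP70, stood at 37.6, 35.4 and 33.4 FPKM in siChe-1 libraries, against 43.9, 46.1 and 39.8 FPKM in siControl libraries, and fell by 0.28 ± 0.09 on the log2 scale (adjusted p = 0.0435, held in 6 of 13 other settings). The stress-induced HSPA1B was nearly silent in both groups. Its whole reads, recovered from the spike-in table, were 10 and 12 in siChe-1 replicates 1 and 2, against 14, 16 and 11 in siControl replicates 1 to 3. HSPA1B has a near-identical copy, HSPA1A, and the counting could have dropped reads that the copies share, so that its level is uncertain.

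The HSP110 proteins and the BAG proteins release nucleotide from HSP70. HSPH1 (HSP110) was at 42.3, 42.2 and 42.1 FPKM in siChe-1 libraries, against 54.6, 51.7 and 59.0 FPKM in siControl libraries, and BAG1, which also binds BCL2, was at 10.1, 11.7 and 10.7 FPKM in siChe-1 libraries, against 16.2, 19.8 and 14.4 FPKM in siControl libraries. Both groups of libraries were apart for both genes. HSPH1 fell by 0.37 ± 0.08 on the log2 scale (adjusted p = 0.0112) and BAG1 fell by 0.58 ± 0.12 (adjusted p = 0.0121). HSPA4 (log2 change -0.34, adjusted p = 0.0696) and HSPA4L (-0.03, adjusted p = 0.882), the other HSP110 proteins, did not pass. BAG3, a stress-induced co-chaperone of selective autophagy, had too low a mean to be tested in FPKM. It was at 8.14, 7.47 and 8.76 FPKM in siChe-1 libraries, against 11.6, 9.98 and 8.53 FPKM in siControl libraries, which overlap. BAG2, an inhibitor of the ligase STUB1, averaged 9.18 ± 1.68 FPKM in siChe-1 and 9.26 ± 1.38 FPKM in siControl libraries (SD, n = 3 each) and was not tested either.

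The J-domain proteins, which deliver clients to HSP70 and start its ATP hydrolysis, had 1 of 5 members that fell and 1 that rose, against 15.1% of all genes in each direction, and the other 3 did not pass. DNAJA1 stood at 162, 175 and 165 FPKM in siChe-1 libraries, against 129, 136 and 146 FPKM in siControl libraries. It rose by 0.29 ± 0.09 on the log2 scale (adjusted p = 0.0454), a call that held in 4 of 13 other settings. Its close relative DNAJA2 stood at 30.4, 30.3 and 31.4 FPKM in siChe-1 libraries, against 39.6, 38.8 and 34.8 FPKM in siControl libraries, and fell by 0.29 ± 0.08 (adjusted p = 0.0261, held in 7 of 13 other settings). For neither gene did the groups overlap. DNAJB1, the main HSP40 of the heat shock response, had a log2 change of -0.19 ± 0.10 (adjusted p = 0.197), and DNAJB4 one of 0.44 ± 0.19 (adjusted p = 0.113).

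DNAJB6, a J-domain protein that keeps aggregation-prone proteins soluble, did not pass as a gene (log2 change -0.11 ± 0.16, adjusted p = 0.628), but its transcripts parted. NM_058246, which encodes the long, nuclear isoform, stood at 25.3, 27.6 and 24.4 FPKM in siChe-1 libraries, against 52.5, 52.6 and 51.3 FPKM in siControl libraries. It fell by 0.99 ± 0.08 on the log2 scale (limma over 6602 transcripts, adjusted p = 0.00203). NM_005494, which encodes the short isoform, stood at 155, 102 and 133 FPKM in siChe-1 libraries, against 140, 88.7 and 115 FPKM in siControl libraries, with a log2 change of 0.19 ± 0.21 (adjusted p = 0.582). The long form was at about the same level in all libraries of a group, while the short form varied and overlapped. Of the FPKM of both, the long form made up 14.03%, 21.3% and 15.5% in siChe-1 libraries, against 27.3%, 37.2% and 30.8% in siControl libraries. The difference of the mean shares was -14.8 percentage points, and the exact two-sided permutation p of 0.1 is the smallest that 3 against 3 libraries can give.

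Over all members, 40 transcripts were tested. Of these 16 fell, as did 10% of all transcripts tested, and 1 rose, that of HSPB11, as did 10.1% of all. The number that fell was 5 without the first siChe-1 value, 6 without the third and 6 without the third siControl value, with 4.39%, 3.21% and 3.67% of all transcripts lower in those fits. Of the 4 members with more than 1 tested transcript, CCT4 and HSPA8 had no called transcript. For HSPD1, which encodes HSP60, the main transcript NM_002156 fell by 0.57 ± 0.12 on the log2 scale (adjusted p = 0.0217). The minor NM_199440 stood at 5.65, 9.87 and 0.125 FPKM in siChe-1 libraries, against 16.99, 23.4 and 19.9 FPKM in siControl libraries. These did not overlap but did not pass the test (log2 change -2.27 ± 0.80, adjusted p = 0.0919). How Cuffdiff divided reads between transcripts of 1 gene is an estimate and is not visible in the values.

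**Figure D3:**
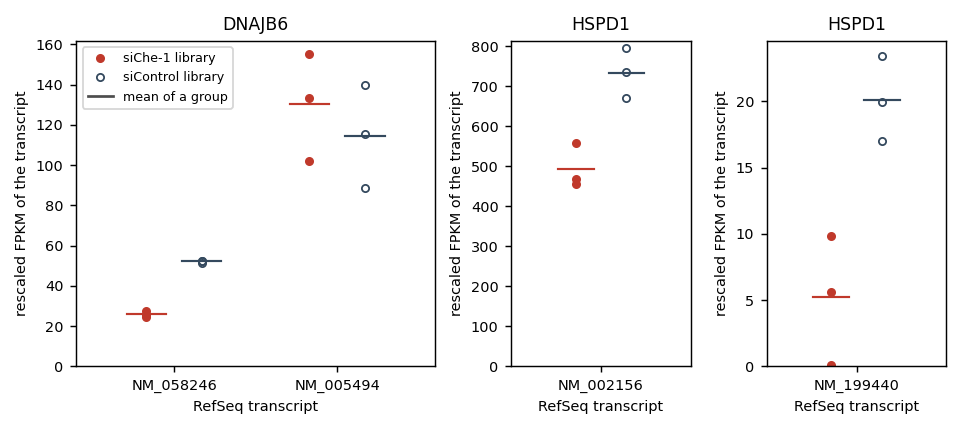
Rescaled FPKM (y axis) of the transcripts of DNAJB6 and HSPD1 in each library, filled for siChe-1 and open for siControl, with a line at each group's mean and a separate y axis for each panel. NM_058246 of DNAJB6 lies between 24.4 and 27.6 FPKM in siChe-1 and between 51.3 and 52.6 FPKM in siControl libraries, while NM_005494 overlaps between the groups.

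Of the cytosolic HSP90 pair, the constitutive HSP90AB1 fell and the inducible HSP90AA1 did not pass. HSP90AB1 stood at 663, 697 and 648 FPKM in siChe-1 libraries, against 861, 860 and 898 FPKM in siControl libraries, a log2 change of -0.38 ± 0.09 (adjusted p = 0.0186). HSP90AA1 stood at 310, 386 and 293 FPKM in siChe-1 libraries, against 393, 384 and 374 FPKM in siControl libraries. Its second siChe-1 value lies inside the siControl range and the other two lie below it, and the log2 change was -0.23 ± 0.12 (adjusted p = 0.197). Whether the 2 genes differ in their response was not tested.

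Of the HSP90 co-chaperones tested, 5 of 6 fell, against 15.1% of all genes. FKBP4, an immunophilin of steroid receptor complexes, stood at 16.2, 19.6 and 18.0 FPKM in siChe-1 libraries, against 26.9, 29.1 and 28.6 FPKM in siControl libraries, and fell by 0.63 ± 0.09 on the log2 scale (adjusted p = 0.00244). STIP1 (HOP), which passes clients over to HSP90 from HSP70, stood at 78.6, 81.0 and 75.3 FPKM in siChe-1 libraries, against 110, 103 and 113 FPKM in siControl libraries. AHSA1, the activator of the HSP90 ATPase, stood at 167, 160 and 159 FPKM in siChe-1 libraries, against 211, 216 and 258 FPKM in siControl libraries. The log2 change was -0.47 ± 0.08 for STIP1 (adjusted p = 0.00625) and -0.49 ± 0.11 for AHSA1 (adjusted p = 0.0130), and for both, as for FKBP4, the groups were apart. PTGES3 (p23), which holds HSP90 in its closed state, stood at 363, 340 and 302 FPKM in siChe-1 libraries, against 441, 434 and 396 FPKM in siControl libraries. CHORDC1 stood at 18.6, 18.1 and 20.05 FPKM in siChe-1 libraries, against 26.4, 21.7 and 27.0 FPKM in siControl libraries. Both fell: the log2 change was -0.34 ± 0.11 for PTGES3 (adjusted p = 0.0476, held in 6 of 13 other settings) and -0.38 ± 0.10 for CHORDC1 (adjusted p = 0.0235, held in 8). CDC37, the adaptor for kinases, had a log2 change of -0.25 ± 0.10 (adjusted p = 0.0901). The ubiquitin ligase STUB1 (CHIP) averaged 7.70 ± 1.63 FPKM in siChe-1 and 9.81 ± 2.37 FPKM in siControl libraries (SD, n = 3 each), too low to be tested.

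In the mitochondrial matrix 3 of 5 members fell, against 15.1% of all genes. HSPD1 (HSP60) stood at 460, 562 and 466 FPKM in siChe-1 libraries, against 691, 821 and 762 FPKM in siControl libraries, and fell by 0.61 ± 0.12 on the log2 scale (adjusted p = 0.00956). Its partner HSPE1 (HSP10) stood at 274, 352 and 197 FPKM in siChe-1 libraries, against 363, 525 and 381 FPKM in siControl libraries. The libraries of HSPE1 did not overlap and its log2 change of -0.64 ± 0.23 was of the size of that of HSPD1, but with the wider spread it did not pass (adjusted p = 0.0699). The 2 genes lie head to head, and a promoter window of HSPD1 on the minus strand (chr2:197500225-197500524) overlaps that of HSPE1 on the plus strand (chr2:197500129-197500428) by 204 bases. In the FPKM table they share 1 span with MOB4, on chromosome 2 of hg19 from 198351308 to 198418423. TRAP1, the HSP90 of mitochondria, stood at 75.3, 72.8 and 72.4 FPKM in siChe-1 libraries, against 111, 102 and 109 FPKM in siControl libraries (log2 change -0.54 ± 0.08, adjusted p = 0.00322). DNAJA3, the matrix J-domain protein, stood at 33.8, 35.1 and 32.2 FPKM in siChe-1 libraries, against 44.4, 44.9 and 44.0 FPKM in siControl libraries (log2 change -0.39 ± 0.07, adjusted p = 0.00664). HSPA9 (mortalin), the matrix HSP70, had a log2 change of -0.23 ± 0.11 (adjusted p = 0.146).

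The 8 CCT subunits, which form the ring in equal numbers, had negative log2 changes throughout, and 6 passed the test. Of all genes tested, 50.6% had a negative log2 change and 15.1% fell. TCP1, the alpha subunit, stood at 99.7, 89.3 and 89.5 FPKM in siChe-1 libraries, against 175, 153 and 161 FPKM in siControl libraries. Its log2 change of -0.81 ± 0.09 (adjusted p = 0.00154) had the largest size among all 36 members tested, and the siChe-1 mean was 56.8% of the siControl mean. CCT5 (epsilon) stood at 138, 137 and 143 FPKM in siChe-1 libraries, against 203, 190 and 218 FPKM in siControl libraries, with a log2 change of -0.54 ± 0.09 (adjusted p = 0.00542). CCT6A (zeta) stood at 201, 185 and 192 FPKM in siChe-1 libraries, against 281, 252 and 291 FPKM in siControl libraries, with a log2 change of -0.51 ± 0.10 (adjusted p = 0.00822). CCT7 (eta) stood at 110, 123 and 111 FPKM in siChe-1 libraries, against 156, 160 and 169 FPKM in siControl libraries, with a log2 change of -0.49 ± 0.09 (adjusted p = 0.00736). In each of these subunits the libraries of the groups lay well apart. CCT2 (beta) stood at 171, 193 and 188 FPKM in siChe-1 libraries, against 244, 242 and 254 FPKM in siControl libraries, with a log2 change of -0.42 ± 0.09 (adjusted p = 0.0123). CCT4 (delta) stood at 127, 131 and 130 FPKM in siChe-1 libraries, against 164, 165 and 175 FPKM in siControl libraries, with a log2 change of -0.38 ± 0.08 (adjusted p = 0.0134). CCT3 (gamma, log2 change -0.26 ± 0.09, adjusted p = 0.0704) and CCT8 (theta, -0.28 ± 0.12, adjusted p = 0.115) did not pass, and of all 8 only CCT8 overlapped between the groups. The FPKM of the 8 subunits added up to 1368, 1348 and 1361 in siChe-1 libraries, against 1834, 1726 and 1932 in siControl libraries.

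In the FPKM table TCP1 shares its span, on chromosome 6 of hg19 from 160181291 to 160210735, with ACAT2 on the opposite strand and with LOC100129518, SNORA20 and SNORA29 on its own strand. LOC100129518 was at most 0.679 FPKM in any library. ACAT2 stood at 15.1, 14.2 and 15.4 FPKM in siChe-1 libraries, against 16.2, 14.7 and 19.4 FPKM in siControl libraries (log2 change -0.15, adjusted p = 0.328). The level of ACAT2 was far below that of TCP1 in every library. Besides TCP1, HSPD1, HSPE1 and HSF1, the members STUB1, CCT3, CCT6A and TRAP1 share a span with another gene. Many chaperone genes, among them HSPA8, HSP90AA1, HSP90AB1, HSPD1 and HSPE1, also have processed pseudogenes, and how shared reads were assigned is not stated.

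**Figure D4:**
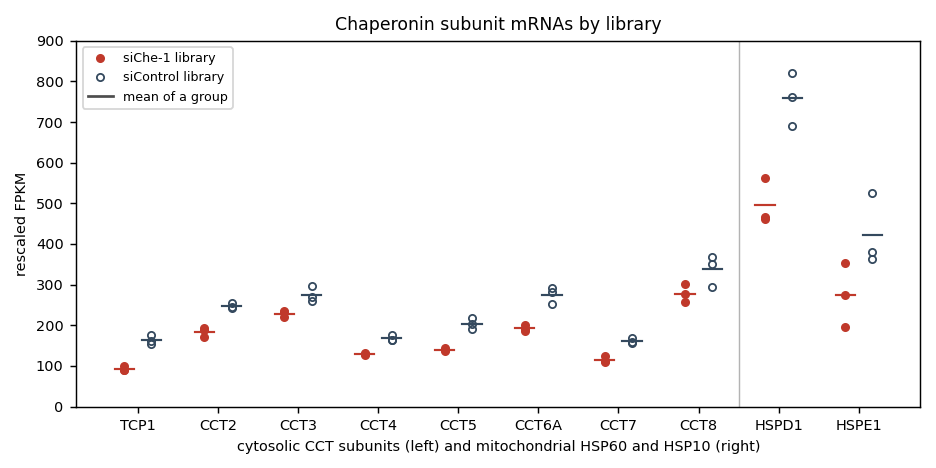
Rescaled FPKM (y axis) of the 8 CCT subunits and of HSPD1 and HSPE1 (x axis) in each library, filled for siChe-1 and open for siControl, with a line at each group's mean. In all but CCT8 every siChe-1 library lies below every siControl library, and TCP1 has the lowest siChe-1 mean of the CCT subunits, 92.9 FPKM, against 163 FPKM in siControl.

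Of the 2 members with a small heat shock protein name, 1 rose relative to other genes, as did 15.1% of all genes. HSPB11 (IFT25), in spite of its name a component of intraflagellar transport, stood at 34.5, 28.0 and 28.5 FPKM in siChe-1 libraries, against 22.5, 22.1 and 22.6 FPKM in siControl libraries. It rose by 0.42 ± 0.09 on the log2 scale (adjusted p = 0.0136). HSPB1 (HSP27), a small heat shock protein that holds unfolded proteins without ATP, averaged 84.8 ± 8.80 FPKM in siChe-1 and 68.6 ± 6.29 FPKM in siControl libraries (SD, n = 3 each). Its libraries did not overlap, with a log2 change of 0.30 ± 0.11 (adjusted p = 0.0748).

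A second count of largely the same libraries gave a similar picture. Whole reads per library had been recovered from the spike-in table for 35 members, in siChe-1 replicates 1 and 2 and in siControl replicates 1 to 3. These reads and FPKM come from the same cells, so that one is no independent repeat of the other. With TMM scaling, which sets the bulk of genes equal, 22 of 35 members fell and 1 rose (edgeR's quasi-likelihood test, Benjamini-Hochberg adjusted p under 0.05 over 12470 genes), as did 14.9% and 14% of all genes. With upper-quartile scaling 17 members fell and 3 rose, against 11.4% and 18% of all genes. The members' median log2 change was -0.40. All 8 CCT genes fell there, led by TCP1 at -0.95 ± 0.11 (adjusted p = 7.16e-05), and so did HSPE1 (-0.49 ± 0.14, adjusted p = 0.0192), HSPA4 (-0.46 ± 0.11, adjusted p = 0.00713) and CDC37 (-0.30 ± 0.11, adjusted p = 0.0484), which had not passed in FPKM. All 17 members that fell in FPKM and had recovered reads also fell here, and HSPB11 rose in both. DNAJA1 did not pass (0.24 ± 0.12, adjusted p = 0.154), nor did BAG3 (-0.40 ± 0.19, adjusted p = 0.145), HSF1 (-0.22 ± 0.13, adjusted p = 0.243) and HSF2 (-0.07 ± 0.12, adjusted p = 0.698). The abundant genes HSPA8, HSPA9, HSPD1, HSP90AA1 and HSP90AB1 allowed more than 1 set of whole reads and are not in this count. Without siChe-1 replicate 1 the number of members that fell was 11, with 8.83% of all genes lower in that fit.

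Against the spike-ins, which measure RNA per unit of added standard and not relative to other genes, all 40 members in the table had negative changes. The authors' deposited table gives a median log2 fold change of -1.65 for the members and of -1.25 for all 12591 genes with a mean of at least 10, so that the members lay below a shift that nearly all genes share. Of 40 members, 36 were lower with an adjusted p under 0.05 in the authors' deposited table, as were 63.5% of all genes. The largest falls in the authors' deposited table were those of TCP1 (-2.19, adjusted p = 1.77e-05), FKBP4 (-2.01, adjusted p = 0.000201) and BAG1 (-1.96, adjusted p = 0.000127). The 4 that did not pass in the authors' deposited table were HSPA1B (-1.58, adjusted p = 0.142), HSPB1 (-0.88, adjusted p = 0.0723), HSPB11 (-0.86, adjusted p = 0.0814) and DNAJB4 (-0.86, adjusted p = 0.0594). Less RNA in each cell and fewer cells behind the same amount of standard cannot be told apart in these bulk samples. Each library was made from 500 ng of total RNA, and at which step the standard was added is not given here. Whether this scale reads RNA per cell or per total RNA thus cannot be told. Whether the standard was added and recovered equally in all libraries was not tested.

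In recovered reads divided by spike-in size factors, TCP1 stood at 3010 and 2424 in siChe-1 replicates 1 and 2, against 9647, 12948 and 14524 in siControl replicates 1 to 3. HSPB1, which did not pass relative to other genes, stood at 1317 and 793 in siChe-1 replicates 1 and 2, against 1426, 2319 and 2089 in siControl replicates 1 to 3. BAG3 stood at 602 and 316 in siChe-1 replicates 1 and 2, against 1312, 1415 and 1354 in siControl replicates 1 to 3. In all 35 members with recovered reads both siChe-1 libraries lay below all siControl libraries. The share of all genes that did so was not counted, but 98.4% of all 12470 genes had a negative log2 change on this scale. edgeR's quasi-likelihood test called all 35 lower, as it did 84.3% of all genes, so that the calls do not set the members apart. Without siChe-1 replicate 2 it called 25 of the 35 and 22.6% of all genes lower. With all these libraries kept and the replicate number as a block, the same test called 0 of the 35 and 0.465% of all genes lower. The labels do not say whether libraries of the same replicate number were paired. The spike-ins drew 835414 and 1041244 reads in siChe-1 replicates 1 and 2, against 351573 to 519573 in siControl libraries. siChe-1 replicate 3, which is not among the libraries behind that table, had 379232 spike-in reads, within the siControl range. The fall against spike-ins thus rests on 2 siChe-1 libraries, and what replicate 3 would give was not tested.

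Other genes of the same pathways were drawn from 6 further lists, of which 75 genes were tested in FPKM: 24 fell, 7 rose, and the median log2 change was -0.12, beside 15.1% of all genes in each direction. With the deposited scaling 27 fell and 3 rose, beside 20.4% and 9.42% of all genes, and with upper-quartile scaling 18 fell and 9 rose, beside 11.3% and 19.4% of all genes. Without the third siChe-1 value 2 rose, beside 7.88% of all genes. Of 15 tested genes of mitochondrial quality control, 7 fell and none rose. They include GRPEL1, the nucleotide exchange factor of HSPA9, at 35.0 ± 1.97 FPKM in siChe-1 and 54.6 ± 3.04 FPKM in siControl libraries (SD, n = 3 each, log2 change -0.63, adjusted p = 0.00207), and PHB, a prohibitin of the inner membrane and the most abundant of the list, with a log2 change of -0.65 (adjusted p = 0.00258). Of 19 tested further HSP90 co-chaperones 7 fell and 1 rose. PPID, a cyclophilin, fell by 0.55 on the log2 scale (adjusted p = 0.00425), while AHSA2, a relative of AHSA1, rose by 0.72 (adjusted p = 0.00194), and the most abundant, TOMM70A, the import receptor of the outer mitochondrial membrane, had a log2 change of -0.12 (adjusted p = 0.369). Of 17 further genes of the HSP70 system 3 fell and 4 rose, with DNAJC2 at -0.62 (adjusted p = 0.0121), DNAJB14 at 0.47 (adjusted p = 0.0115) and the most abundant, DNAJC8, at -0.41 (adjusted p = 0.0289).

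Prefoldin hands unfolded actin and tubulin to CCT. Of 7 tested genes of the prefoldin list, which also holds the prefoldin-like URI1 and UXT, 2 fell, beside 15.1% of all genes. These were PFDN4, with a log2 change of -0.64 (adjusted p = 0.00163), and URI1, with one of -0.34 (adjusted p = 0.0494). The most abundant, UXT, had one of 0.06 (adjusted p = 0.839). None of 5 tested CCT assistants passed the adjusted test, PDCL with a log2 change of 0.28 (adjusted p = 0.0703, unadjusted p = 0.0244), TSSC1 with one of -0.14 (adjusted p = 0.4005) and the most abundant, PDCL3, with one of -0.06 (adjusted p = 0.747). At an unadjusted p under 0.05 the count was 1, that of PDCL, and the share of all genes at that threshold is not given here. Of 12 tested partners and targets of heat shock factors 5 fell and 2 rose, beside 15.1% of all genes in each direction. HSBP1, a small protein that binds HSF1 trimers, averaged 29.9 ± 3.12 FPKM in siChe-1 and 54.8 ± 5.24 FPKM in siControl libraries (SD, n = 3 each), and IER5, a known HSF1 target and partner, averaged 20.3 ± 3.39 FPKM in siChe-1 and 9.08 ± 1.03 FPKM in siControl libraries (SD, n = 3 each). Their log2 changes were -0.85 (adjusted p = 0.00187) and 1.07 (adjusted p = 0.00192), while the most abundant, the ubiquitin gene UBB, had one of 0.20 (adjusted p = 0.250).

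The chaperones of the endoplasmic reticulum and the proteasome are the nearest other groups of protein quality control. Of 27 tested ER chaperones 3 fell and 1 rose, beside 15.1% of all genes in each direction, with a median log2 change of 0.09. SEL1L had a log2 change of -0.39 (adjusted p = 0.0148), ERP44 one of 0.45 (adjusted p = 0.0188) and PPIB, the most abundant, one of 0.13 (adjusted p = 0.413). Of 36 tested proteasome genes 7 fell and 2 rose, beside the same 15.1% in each direction, with a median of -0.18. PSMD5, an assembly chaperone of the regulatory particle, had a log2 change of -0.88 (adjusted p = 0.00140), PSMA6 one of -0.44 (adjusted p = 0.0108) and PSMA4, the most abundant, one of -0.07 (adjusted p = 0.719). Whether these lists differ from the heat shock chaperones was not tested.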

How the data were processed

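RNA of KMS-27 cells, 500 ng of total RNA per library depleted of ribosomal RNA, was sequenced by the submitters with a stranded kit, per the labels. Per the submitters' processing notes the build was hg19 and the tools were TopHat, HTSeq, DESeq2, Cufflinks and Cuffdiff, without versions. The deposited tables hold, per the file headers, the count of reads of 92 spike-ins in 6 libraries; a signal that is the authors' spike-in-normalized group mean, with their ratio (fold change), its log2, p-value and adjusted p, for 16444 genes; and FPKM of 18750 transcripts, as group means and 3 values per group, with the authors' log2, p-value and q-value. The authors' group means rest on 5 libraries without siChe-1 replicate 3: with this set 100% of low means are whole reads over spike-in size factors, and 0% with other sets. Whole reads were recovered for 16323 of 16444 genes (99.3%), 19205652 to 21827039 per library; the remaining 121 genes hold 19.5% of siControl and 18.7% of siChe-1 normalized reads.

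FPKM were summed over the transcripts of each gene, those off the assembled chromosomes left out. Genes whose FPKM averaged at least 10 were tested, with libraries rescaled by the median of ratios over them and log2(FPKM + 1) fitted by limma 3.58.1 with a mean-variance trend. This scale understates changes of low genes. Recovered reads (spike-in mean of at least 10) were tested with edgeR 4.0.16 on spike-in factors or TMM, with DESeq2 1.42.0 as an alternative. The depth behind single FPKM values is unknown. All fits covered the whole table, tests were two-sided, adjusted p (Benjamini-Hochberg) had to be under 0.05, and scripts were tested on simulated data. There, limma on FPKM recovered 43.5% of log2 changes of 0.5 and 92.5% of those of 1. With edgeR these shares were 33.5% and 85.5% with TMM, and 0% and 27.5% on the spike-in scale. A gene that did not pass may thus have changed by such an amount. Groups came from sample titles. Nothing in the labels ties the libraries of a group to separate cultures: p-values cover the spread between libraries alone, which may be technical.

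The members and lists were chosen with earlier results of these data known. All members are named; values per library are given for those called, the 6 most abundant, and HSF1, HSF2, HSPA1B and BAG3 (HSPA1A, also under this rule, was not analysed here). Named from each other list are its most abundant gene and the 2 of lowest p, of marker lists the most abundant, and transcripts where those of 1 member (mean FPKM of at least 10) differ in sign or call. Starts in the FPKM table count from 0 and were raised by 1. Alternatives were other pseudocounts, minimums, scalings and tools, and each library left out.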

Additional observations from a re-analysis of the deposited data

How the results depend on the processing

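Leaving out 1 library at a time, 11 to 18 members fell and 1 to 2 rose in FPKM, 11 to 21 fell and 0 to 1 rose in recovered reads with TMM, 25 to 35 fell on the spike-in scale, 5 to 13 member transcripts fell and 0 to 1 rose, and of the other chaperone lists 2 to 5 genes rose. Shares of all genes that fell moved too, over 7.83% to 13.8% in FPKM, 8.66% to 17.2% with TMM, 22.6% to 93.2% on the spike-in scale and 3.21% to 6.85% of transcripts. Shares that rose ranged over 7.88% to 13.3% in FPKM, 8.04% to 15.8% with TMM and 2.65% to 6.66% of transcripts. Of 20 members that fell in FPKM, 11 did so in all 13 other settings. With the deposited scaling 24 fell and 1 rose, and the median of all genes moved to -0.09; with upper-quartile scaling 16 fell and 3 rose. With a mean FPKM of at least 1 the members that rose numbered 1, beside 13.4% of all genes, and with no minimum 0, beside 12.1%. In TMM fits, the members that rose numbered 0 with DESeq2, 0 with no minimum and 3 with upper-quartile scaling. Beside them 12.8%, 11.5% and 18% of all genes rose. Of transcripts, 2 rose with a pseudocount of 0.1 and 0 with a minimum FPKM of 1, beside 10.1% and 4.37% of all transcripts. Of the other lists 3 genes rose with the deposited scaling, beside 9.42% of all genes. The labels do not say whether libraries of the same replicate number were paired. With 2 shared numbers the differences of replicate 1 and 2 correlated across 12470 genes with r = 0.22. With the number as a replicate block, 24 members and 16.3% of all genes fell with TMM. On the spike-in scale 0 members and 0.465% of all genes fell with the block, where all 35 and 84.3% fell without it. Signs turned for changes near 0 that had not passed. HSF2 had -0.072 with the deposited scaling, -0.040 with a minimum FPKM of 1 and -0.054 with none; with reads it had 0.018 in the replicate block and 0.0049 with the upper quartile. HSPA4L had 0.035 with the upper quartile of FPKM. With 1 library left out, HSF2 ranged over -0.099 to 0.084 in FPKM and -0.18 to 0.012 in reads, its transcript over -0.34 to 0.21, HSPA4L over -0.12 to 0.065 and its transcript over -0.098 to 0.081, DNAJB6 over -0.23 to 0.015 and BAG2 in reads over -0.42 to 0.023. The cause was not tested. The no-minimum alternative of the authors' table left its counts as they were.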
